A study of Homo sapiens with 24 samples.

Results

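SLNCR is a long noncoding RNA of melanoma, listed under the symbol LINC00673, and the series asks how stretches of it that may form a triplex with double-stranded DNA bear on gene expression. The libraries described here are the 6 of batch 1 made from A375 cells that received SLNCR without triplex-forming region 1 (ΔTFR1, 3 libraries) or without region 2 (ΔTFR2, 3 libraries), set as 1 group against the 3 batch 1 libraries of cells that received the vector backbone alone (empty vector). They are 9 of the 24 libraries in the series and were chosen by their labelled construct and batch. A375 is an established human melanoma line. All groups shared the pcDNA3.1 backbone with a CAG promoter and a puromycin resistance gene, transfection with Lipofectamine 2000, DMEM with 10% serum and 48 h of growth in 2 µg/mL puromycin, so the empty vector cells carried transfection and selection too. The design text calls the 3 libraries of each condition biological replicates; it does not say how the cultures were kept apart, and p-values measure the spread between these libraries. The 3 batch 1 libraries with full-length SLNCR entered the same model and are used below only for comparison.

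A triplex forms when RNA lies as the third strand in the major groove of a DNA stretch that has purines on 1 strand and pyrimidines on the other. RNA strands that can take this place are themselves rich in purines or in pyrimidines, and triplex formation is known as 1 way for a long noncoding RNA to reach a chosen site in chromatin. SLNCR itself is known in melanoma for binding the factors BRN3A and EGR1, for raising the matrix protease gene MMP9 and for lowering the cell cycle inhibitor gene CDKN1A. The comparison asks what a large rise of SLNCR that lacks region 1 or region 2 changes in these cells, with the power of 6 libraries in place of 3.

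No source used here gives the boundaries of regions 1 and 2, so the deleted bases are not shown. To show the kind of sequence concerned, the SLNCR transcript of GENCODE release 29 (GRCh38, chromosome 17, minus strand, 2257 bases in 4 exons) was searched for runs of at least 12 bases made only of purines or only of pyrimidines. It held 6 such runs, 2 of purines and 4 of pyrimidines, and the longest had 15 bases. The longest run and both purine runs follow with 15 bases on each side. They are given 5′ to 3′ as the DNA letters of the transcript, with the run in capitals.
Pyrimidine run in exon 4, chr17:72404121-72404165: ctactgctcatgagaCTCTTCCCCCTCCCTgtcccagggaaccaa
Purine run in exon 1, chr17:72592533-72592574: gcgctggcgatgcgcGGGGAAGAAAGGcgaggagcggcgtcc
Purine run in exon 4, chr17:72404285-72404326: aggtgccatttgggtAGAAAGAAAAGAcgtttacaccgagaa
A run of this kind is a description of letters, and whether any of the 6 lies in region 1 or 2 was not tested.

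SLNCR rose to about the same level with both deletion constructs. Its normalised level (CPM, counts scaled to a common library size with TMM factors) was 191, 205 and 197 in the ΔTFR1 libraries and 206, 187 and 192 in the ΔTFR2 libraries, against 18.9, 20.8 and 20.6 in the empty vector libraries. Every deletion library lay far above every empty vector library, and the deletion libraries differed little among themselves. The mean was 197 ± 7.94 CPM with the deletions (SD, n = 6) and 20.1 ± 1.04 CPM with empty vector (SD, n = 3), a 9.78-fold difference with a 95% interval of 7.97 to 12. On the log2 scale the fold change was 3.29 with a standard error (SE) of 0.13, and edgeR's quasi-likelihood test gave an adjusted p of 2.48e-06 over all 14310 genes tested. An exact two-sided permutation test of the 6 against the 3 libraries gave p = 0.0238, the smallest value that the 84 possible splits allow. The counts do not separate RNA made from the plasmid from RNA made at the SLNCR locus.

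The constructs were matched in dose as far as the RNA level shows. Each deletion alone gave a log2 fold change near the pooled one, 3.30 for ΔTFR1 and 3.28 for ΔTFR2 over empty vector. The difference between ΔTFR2 and ΔTFR1 was -0.02 on the log2 scale, with a 95% interval of -0.27 to 0.23 and an unadjusted p of 0.859 by edgeR. Full-length SLNCR averaged 208 ± 38.8 CPM (SD, n = 3), and the pooled deletions were at a log2 fold change of -0.08 against it, with a 95% interval of -0.29 to 0.13 and an adjusted p of 0.597 by edgeR. A deletion removes part of the transcript that can yield reads, and no level was corrected for that.

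**Figure D1:**
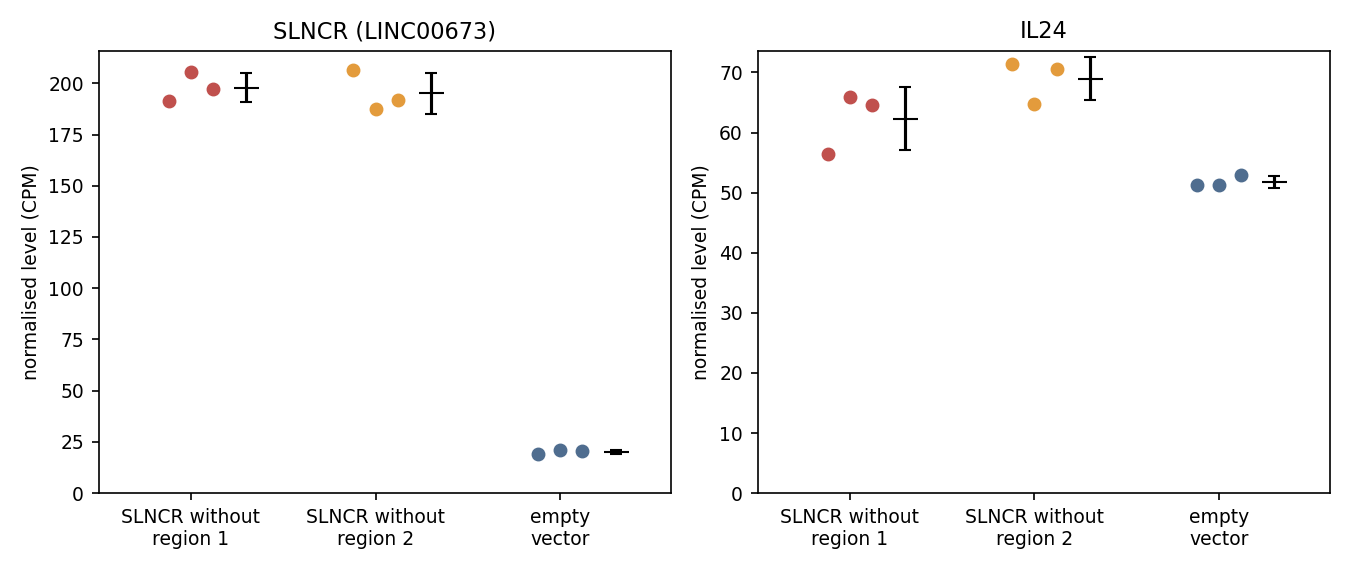
Normalised level (CPM, vertical axis from 0) of SLNCR (left panel) and IL24 (right panel) in each library of the ΔTFR1, ΔTFR2 and empty vector groups; coloured points are libraries, black marks are the group mean with its SD (n = 3). SLNCR sits between 187 and 206 in the deletion libraries and between 18.9 and 20.8 in the empty vector libraries, while for IL24 the lowest deletion library, at 56.4, lies close above the highest empty vector library, at 52.9.

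Apart from SLNCR itself, IL24 alone passed the test. IL24 encodes interleukin 24, a secreted cytokine of the interleukin 10 family first found as a gene raised when melanoma cells are driven to differentiate, and known to halt growth of tumour cells. Together with SLNCR it made 2 genes called of 14310, which is 0.0140% of the genes tested, both higher with the deletions (edgeR, adjusted p under 0.05). No gene was called lower.

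IL24 stood at 56.4, 66.0 and 64.6 CPM in the ΔTFR1 libraries and at 71.4, 64.8 and 70.5 CPM in the ΔTFR2 libraries, against 51.2, 51.2 and 52.9 CPM in the empty vector libraries. The groups did not overlap, and the empty vector libraries lay closer together than the deletion libraries. The mean was 65.6 ± 5.39 CPM with the deletions (SD, n = 6) and 51.8 ± 0.984 CPM with empty vector (SD, n = 3). This is a 1.27-fold difference with a 95% interval of 1.16 to 1.38. It rested on 3532 counts over the 6 deletion libraries and 1501 over the 3 empty vector libraries. The log2 fold change was 0.34 with an SE of 0.06 and an adjusted p of 0.0191 by edgeR. The exact two-sided permutation test gave p = 0.0238, again the smallest that the design allows. Every gene whose groups do not overlap gets this value, and 189 genes on the higher side (1.32%) and 163 on the lower side (1.14%) did not overlap. IL24 was picked from the same libraries, so this p adds no separate support for its call.

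Both deletions stood above empty vector for IL24, and the 2 estimates share the same empty vector libraries. The log2 fold change was 0.27 for ΔTFR1 (SE 0.07, adjusted p = 0.992 by edgeR) and 0.41 for ΔTFR2 (SE 0.07, adjusted p = 0.00668 by edgeR). Tested directly, ΔTFR2 exceeded ΔTFR1 by 0.14 on the log2 scale, with an unadjusted p of 0.0401 and an adjusted p of 1.00 by edgeR. Full-length SLNCR was at 58.4, 60.4 and 60.6 CPM, and its own log2 fold change over empty vector was 0.21 with an adjusted p of 0.0268 by edgeR. That comparison called 3247 genes (22.7%). The full-length libraries also differed from the others in how counts followed gene GC content, as given below. The pooled deletions exceeded full length by 0.13 on the log2 scale, with an adjusted p of 0.107 by edgeR. IL24 was therefore not shown to differ between SLNCR with and without a region.

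The call of IL24 depended on the libraries used, while the size of its change did not. Leaving out 1 library at a time moved its log2 fold change only between 0.32 and 0.38, but the adjusted p by edgeR ran from 0.00257 to 0.597. It passed 0.05 without ΔTFR1 replicate 1 and without ΔTFR2 replicate 2, and missed it in the other 7 refits. Without both empty vector replicate 1 and ΔTFR1 replicate 1, each the farthest library from 0 on 1 of the first 2 principal components, the log2 fold change was 0.37 and the adjusted p was 0.0536 by edgeR.

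The promoter of IL24 is shown because it belongs to the called gene other than SLNCR and because a triplex needs a run of purines or pyrimidines in DNA. The window holds the 250 bases before the start of the gene in RefSeq (GRCh38.p14, plus strand), 5′ to 3′, with its longest such run in capitals.
IL24 promoter, chr1:206897193-206897442: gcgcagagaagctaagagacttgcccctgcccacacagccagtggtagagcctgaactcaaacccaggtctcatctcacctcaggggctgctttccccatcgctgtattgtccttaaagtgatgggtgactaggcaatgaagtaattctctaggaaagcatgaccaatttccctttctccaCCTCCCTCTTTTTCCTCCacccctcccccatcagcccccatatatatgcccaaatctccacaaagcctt
The run is 18 pyrimidines long and lies 69 to 52 bases before the start. Among 35116 RefSeq promoters searched the same way on both strands, 2934 (8.36%) held a run of at least that length, and the median longest run was 11 bases. The letters TGANTCA, which the AP-1 factors bind, were not in the IL24 window and were in 6.57% of all promoters. TATAAA was not in it and was in 10.7%. Only these exact letters were searched for. The window does hold the letters TATATAT near its end, which were not searched for in the other promoters. These matches describe the window, and binding of SLNCR there was not tested.

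The rest of the interleukin 10 family gave little signal. Of its 11 listed ligands and receptors, 4 passed the filter on low counts, and IL24 was called among them. IL10RB, the receptor chain shared by several cytokines of the family, had a log2 fold change of 0.02 (95% interval -0.30 to 0.33). IL20RB and IL22RA1, chains of the receptors through which interleukin 24 acts, had log2 fold changes of -0.04 and -0.18 at 1.22 and 1.56 CPM with the deletions, against 1.25 and 1.76 CPM with empty vector. IL10 had 3 counts over the deletion libraries and 2 over the empty vector libraries, IL19 had 4 and 1, and IL20RA had 1 and 0. IL20, IL22, IL26 and IL10RA had no count in any of the 9 libraries.

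Across the genome the deletion and empty vector libraries were hard to tell apart. An unadjusted p under 0.05 was reached by 624 genes (4.36%), with 313 higher (2.19%) and 311 lower (2.17%). The libraries of the groups did not overlap for 189 genes on the higher side (1.32%) and 163 on the lower side (1.14%). The median log2 fold change was 0.00 and the median absolute one was 0.06. The absolute log2 fold change reached 1 in 16 genes, and among genes other than SLNCR the largest was 1.63, at a mean level under 1 CPM. Among genes at 10 CPM or more, other than SLNCR, it was at most 0.40.

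**Figure D2:**
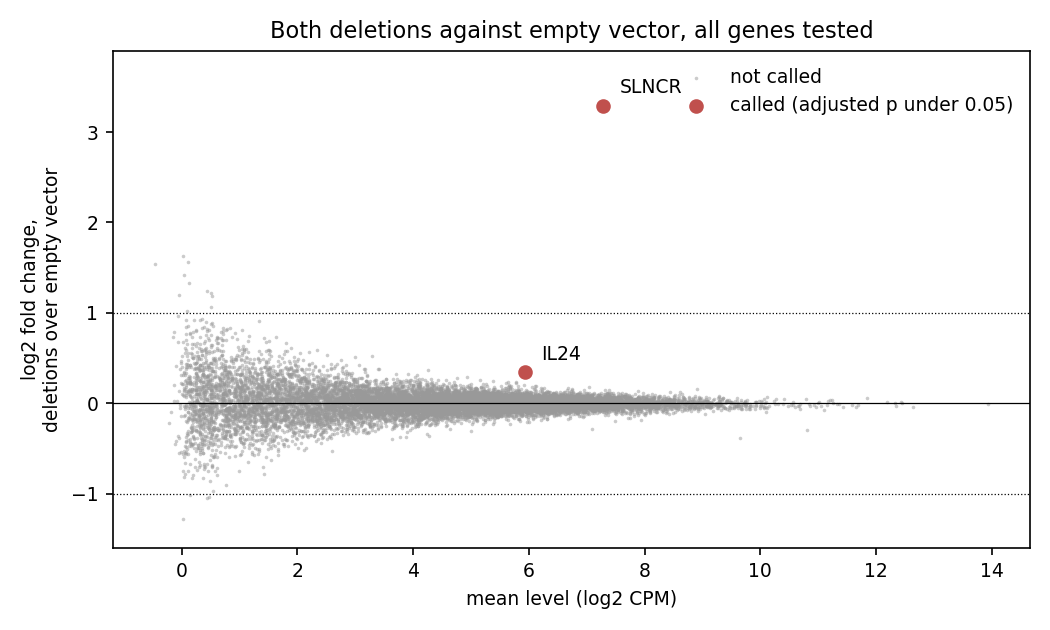
Log2 fold change of the pooled deletions over empty vector (vertical axis) against mean level (log2 CPM, horizontal axis) for the 14310 genes tested; dotted lines mark a 2-fold difference. SLNCR at 3.29 and IL24 at 0.34 are the 2 genes called (large points), and the cloud of other genes narrows with level around a median of 0.00.

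How large a change could have stayed hidden is given by the intervals. At 10 to 100 CPM, where 7345 genes lie, the median margin of the 95% interval (from the estimate to either bound) was 0.15 on the log2 scale, and for 99.8% of these genes the whole interval lay within 1.5-fold of no difference. At 100 CPM or more the median margin was 0.09. At 1 to 10 CPM it was 0.43, with 49.3% of 4226 genes inside 1.5-fold and 90.1% inside 2-fold, and under 1 CPM it was 0.83 with 31.2% of 279 genes inside 2-fold. Over all genes, 82.9% had an interval inside 1.5-fold and 95.7% inside 2-fold. Pooling narrowed the median margin to 0.17, against 0.20 for ΔTFR1 alone and 0.20 for ΔTFR2 alone. A change under 1.5-fold in a gene below 10 CPM was often not detectable with these libraries. The intervals are not adjusted for the number of genes, while a call needed an adjusted p under 0.05 over all 14310. An interval that left out 0 was thus not enough for a call above 10 CPM either. UCA1, described below, had an unadjusted p of 0.000561 and an adjusted p of 0.984 by edgeR.

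**Figure D3:**
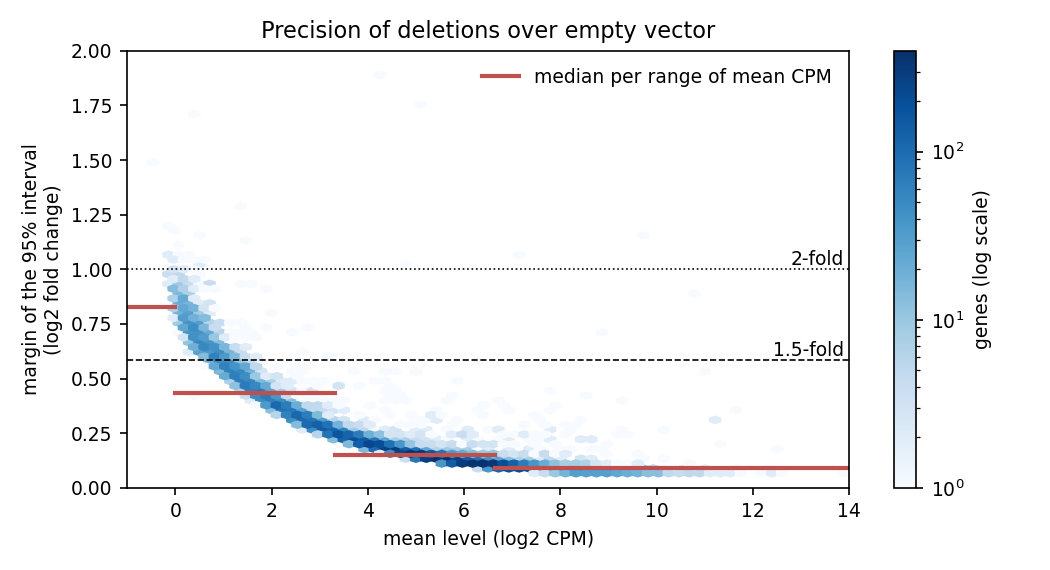
Margin of the 95% interval of the pooled log2 fold change (vertical axis, cut at 2) against mean level (log2 CPM, horizontal axis); the shade gives the number of genes on a log scale and red bars are the medians under 1, at 1 to 10, at 10 to 100 and at 100 CPM or more. The medians are 0.83, 0.43, 0.15 and 0.09, and the dashed and dotted lines mark 1.5-fold and 2-fold.

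Of the 7 genes at 10 CPM or more whose interval reached 2-fold, SLNCR was 1, and the others were the ribosomal RNA genes RNA45SN2, RNA45SN3, RNR1 and RNR2, the microRNA gene MIR663A and the long noncoding RNA LINC-PINT. The width for LINC-PINT is not reliable. Its SE was computed from the log2 fold change, here 3.02e-06, and an equally small test statistic. That SE was 0.45 for the pooled deletions, against 0.24 for ΔTFR1 alone and 0.24 for ΔTFR2 alone. RNA45SN3 ran from 1210 to 2368 CPM in the deletion libraries and stood at 3109, 2058 and 1926 CPM in the empty vector libraries. The libraries had been depleted of ribosomal RNA before sequencing.

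The deletion groups did not separate from each other. ΔTFR1 against empty vector called 1 gene (0.00699%), SLNCR, and ΔTFR2 against empty vector called 2 (0.0140%), SLNCR and IL24. ΔTFR2 against ΔTFR1 called 0 genes with edgeR, with 551 at an unadjusted p under 0.05 (3.85%), of which 220 were higher (1.54%) and 331 lower (2.31%) with ΔTFR2, and DESeq2 called 0 as well with 268. Set against full-length SLNCR instead of empty vector, the same 6 libraries gave 2587 calls (18.1%), and full length against empty vector gave 3247 (22.7%). The full-length libraries differed from the others in how counts followed gene GC content, with rank correlations of -0.60 to -0.37 against 0.03 to 0.33 in the deletion libraries and 0.12 to 0.52 in the empty vector libraries. With these trends removed, the count against full length was 180, and the pooled count against empty vector stayed at 2.

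The genes next in order of p after SLNCR and IL24 did not pass the test and are given as values. HIST1H3D, a replication-dependent histone H3 gene, came closest. It had a lowest, median and highest level of 233, 245 and 257 CPM in the deletion libraries, against 294, 268 and 272 CPM in the empty vector libraries. All 6 deletion libraries lay below all 3 empty vector libraries. Its log2 fold change was -0.19 (SE 0.04), with an unadjusted p of 0.000175 and an adjusted p of 0.837 by edgeR. When the model held only the 9 libraries it was called, with adjusted p of 0.0426 (3 groups) and 0.0343 (deletions as 1 group). Histone H3 genes are near-identical in sequence, and how reads were shared among them is not given.

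Among the genes on the higher side, UCA1, a long noncoding RNA known from bladder cancer, was the most abundant. Its levels were 467, 499 and 529 CPM (lowest, median and highest) with the deletions, against 458, 418 and 463 CPM with empty vector, so the gap between the groups was narrow. Its log2 fold change was 0.16 with an adjusted p of 0.984 by edgeR. RTKN2 had 8.40, 10.3 and 12.7 CPM with the deletions, against 6.89, 7.41 and 7.25 CPM with empty vector. PPM1H, a protein phosphatase known to act on Rab GTPases, had 6.87, 8.52 and 9.13 CPM with the deletions, against 5.92, 5.80 and 5.65 CPM with empty vector. Their log2 fold changes were 0.52 and 0.51, and both stood at an adjusted p of 0.984 by edgeR.

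The other 5 on that side were smaller in size or lower in level. SYNE1, which encodes the nuclear envelope protein nesprin 1, had a log2 fold change of 0.24. XRCC2, a gene of homologous recombination, had 0.25, and WIPF1, a partner of the actin regulator WASP, had 0.20. The gene listed as C9ORF3 (AOPEP in RefSeq, an aminopeptidase) had 0.29. The gene listed as C11ORF45 (KCNJ5-AS1 in RefSeq) had 0.91 at 2.61 CPM with the deletions, against 1.39 CPM with empty vector. The strand setting of the counting is not given, so its reads cannot be told from those of the gene it overlaps.

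On the lower side, PLIN4, a perilipin of lipid droplets, had 15.6, 18.5 and 19.9 CPM with the deletions, against 24.2, 25.9 and 20.4 CPM with empty vector, a log2 fold change of -0.36. DGAT1, the enzyme that makes triglyceride for such droplets, had -0.23. COL6A1, a chain of collagen VI, had -0.21, and IMPDH1, an enzyme of guanine nucleotide synthesis, had -0.16. HIRIP3, which binds the histone chaperone HIRA, had -0.28. The others were HDDC3 at -0.38, TGFBR3L at -0.79 on levels of 2.17 CPM with the deletions and 3.76 CPM with empty vector, and the zinc finger genes ZNF367 at -0.24 and ZNF778 at -0.30. All 9 stood at an adjusted p of 0.984 by edgeR. Both deletions lay on the same side of empty vector for each of the 18 genes after IL24. The demand for non-overlapping libraries fixed this in advance, so it does not show that the deletions agree.

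**Figure D4:**
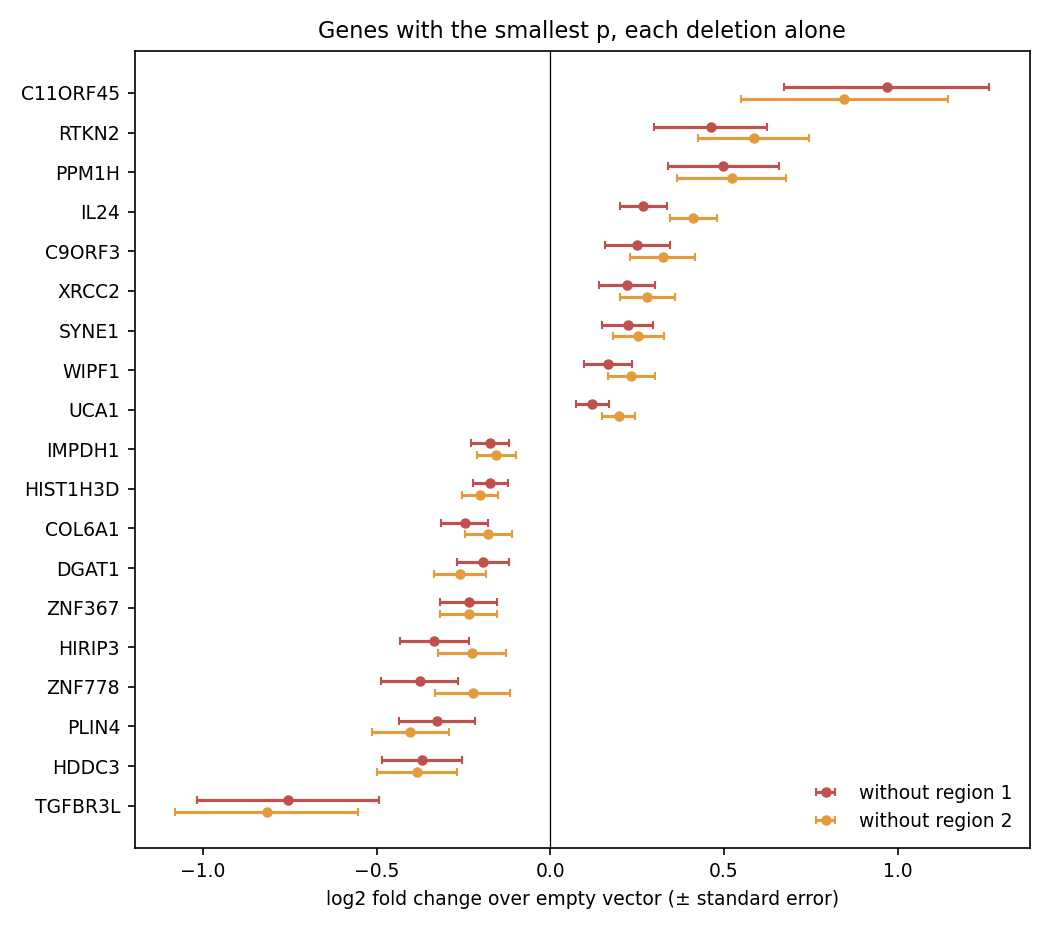
Log2 fold change over empty vector (horizontal axis, bars are ± SE) of ΔTFR1 and of ΔTFR2 for IL24 and the 18 genes with the next smallest p whose libraries do not overlap. IL24 lies at 0.27 and 0.41. Every gene has both points on the same side of 0, which the demand for non-overlapping libraries fixed in advance. Both estimates of a gene share the 3 empty vector libraries.

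Genes with a known link to SLNCR were not called. MMP9 did not pass the filter on low counts: the 6 deletion libraries held 11 counts and the 3 empty vector libraries held 3. CDKN1A, which encodes the inhibitor p21, had levels of 268, 288 and 304 CPM (lowest, median and highest) with the deletions, against 282, 254 and 271 CPM with empty vector. The groups overlapped. Its log2 fold change was 0.10 with a 95% interval of 0.02 to 0.18 and an adjusted p of 0.984 by edgeR, and it was 0.05 for ΔTFR1 and 0.15 for ΔTFR2. POU4F1, which encodes BRN3A, had a log2 fold change of -0.03 (95% interval -0.42 to 0.35), and EGR1 had 0.05 (95% interval -0.14 to 0.24).

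The chromosome 17 neighbours of the SLNCR locus served to ask whether nearby genes moved with it. Of 14 listed, 11 were tested and 0 were called by edgeR, with 0 at an unadjusted p under 0.05. SOX9, a neural crest and chondrocyte factor that lies in this region, averaged 135 ± 6.22 CPM with the deletions (SD, n = 6) and 142 ± 6.05 CPM with empty vector (SD, n = 3), a log2 fold change of -0.07 (95% interval -0.16 to 0.02). KCNJ2, a potassium channel gene, had 0.33 at 3.28 CPM with the deletions and 2.57 CPM with empty vector, and SLC39A11, a zinc transporter gene, had -0.19. The widest interval was that of SDK2, a synaptic adhesion gene, which ran from -0.56 to 2.00 around 0.72; ΔTFR2 replicate 1 stood at 7.16 CPM and the other deletion libraries at 0.689 to 2.73 CPM. The list's median was 0.04, beside 0.00 over all genes, and it was -0.02 without empty vector replicate 3.

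The gene lists below cover pathways that transfection, selection or a melanoma line could move. In each the call count is 0 of the members tested in either direction by edgeR, and IL24 is a member of none of them. Counts at an unadjusted p under 0.05 stand beside a background of 2.19% of all genes higher and 2.17% lower.

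In the lists of innate immunity and secretion, 0 genes were called by edgeR, and 7 reached an unadjusted p under 0.05. IL24, itself a secreted cytokine, was listed with the interleukin 10 family above and not here. Of 17 cytokine and chemokine genes tested, 2 had an unadjusted p under 0.05 on the higher side, IL6 (log2 fold change 0.58) and CSF2 (0.80), both growth and inflammation signals at a few CPM, and the median was 0.00. IL6 had 2.84, 3.46 and 5.56 CPM with the deletions, against 2.91, 2.15 and 2.35 CPM with empty vector, and the groups overlapped. Of 16 NF-kB targets, 12 were above 0 with a median of 0.07. BIRC3, an inhibitor of apoptosis, had 0.40, PTGS2, which encodes cyclooxygenase 2, had 0.26, and TNFAIP2 had -0.12, each at an unadjusted p under 0.05. Of 21 interferon-stimulated genes, OAS3 (-0.11) had an unadjusted p under 0.05 and IFIT2 (0.36) the next smallest, and the median was 0.02. Of 8 genes of cytosolic DNA sensing, which detect foreign DNA such as a plasmid, IFI16 had 0.15 with an unadjusted p under 0.05 and DDX41 had -0.13. Their median was -0.07, and leaving out 1 library at a time moved it between -0.09 and 0.03.

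Lists of the cell cycle and of MAPK signalling held no call. Of 25 genes of the G1 to S transition and replication, 3 had an unadjusted p under 0.05 on the lower side, among them UHRF1, which maintains DNA methylation, with -0.13 and CCNE1 (cyclin E1) with -0.22, and the median was -0.02. Of 25 genes of G2 and mitosis, 0 had an unadjusted p under 0.05, and AURKB and CENPE, the first in order, had -0.11 and -0.10. Of 20 genes downstream of MAPK signalling, the pathway that mutant BRAF drives in this line, 0 had an unadjusted p under 0.05. MYC had -0.11 and SPRED1, an inhibitor of the pathway, 0.09.

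Among the immediate-early factors of the AP-1 family, FOS and FOSB, which pair with JUN proteins to bind DNA, stood lower with ΔTFR2 than with ΔTFR1, without passing the test. FOS had 45.5, 27.6 and 29.9 CPM in the ΔTFR1 libraries and 25.2, 25.2 and 25.7 CPM in the ΔTFR2 libraries, against 35.9, 39.2 and 34.7 CPM in the empty vector libraries. All ΔTFR2 libraries lay below empty vector, while ΔTFR1 replicate 1 lay above it. FOSB had 58.3, 40.5 and 46.1 CPM in the ΔTFR1 libraries and 36.4, 35.9 and 36.4 CPM in the ΔTFR2 libraries, against 49.1, 52.8 and 43.0 CPM in the empty vector libraries. For both genes ΔTFR1 replicate 1 was the highest deletion library, so the gap between the deletions rests in part on that library. ΔTFR2 was below ΔTFR1 by 0.44 for FOS and 0.41 for FOSB on the log2 scale, with unadjusted p of 0.00477 and 0.00132 and an adjusted p of 1.00 each by edgeR. The pooled log2 fold changes over empty vector were -0.31 for FOS and -0.21 for FOSB. Without ΔTFR1 replicate 1, FOS was called, at -0.43 with an adjusted p of 0.00877. JUN had -0.18 and FOSL1, the most abundant AP-1 gene here at 495 CPM with the deletions and 509 CPM with empty vector, had -0.04. Of the 13 factors tested, 3 had an unadjusted p under 0.05 on the lower side, and the median was -0.04.

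Stress and metabolism lists lay close to 0. Of 23 integrated stress response genes, 3 were above 0 with a median of -0.05, and 0 had an unadjusted p under 0.05. DDIT3, which encodes the stress factor CHOP, had -0.24 and STC2, a secreted glycoprotein, -0.10. The 20 aminoacyl-tRNA synthetase genes had a median of 0.00, with IARS at 0.05 and SARS at 0.06. Of 19 genes of the unfolded protein response, DNAJB9, a chaperone of the endoplasmic reticulum, had 0.26 with an unadjusted p under 0.05, and SEL1L, part of the degradation machinery there, had 0.07. Of 18 heat shock and chaperonin genes, BAG3 and HSPA1B had -0.09 each. Of 23 cholesterol synthesis genes, EBP had -0.10 and STARD4 had 0.20, with a median of 0.01. Of 18 hypoxia genes, PFKFB3, a regulator of glycolysis, had -0.15 with an unadjusted p under 0.05, and P4HA1 had 0.17. Of 17 NRF2 targets, GCLM, which makes glutathione, had 0.09 with an unadjusted p under 0.05, and FTH1 had 0.06.

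In 3 lists of abundant genes most members lay slightly below 0, a lean not particular to them. Of the integrated stress response genes 20 of 23 lay below 0, while other lists leaned above it, such as the NF-kB targets with 12 of 16. Of 55 replication-dependent histone genes tested, 50 were below 0 with a median of -0.09, and 5 had an unadjusted p under 0.05, among them HIST1H3D and HIST1H4D. Their summed level ran from 6328 to 7063 CPM in the deletion libraries and from 6662 to 7607 CPM in the empty vector libraries, so the groups overlapped. Without empty vector replicate 1 the median was -0.03, without empty vector replicate 3 it was -0.15, and with GC trends removed it was -0.08. Of 78 ribosomal protein genes, 66 were below 0 with a median of -0.03, and that median was 0.00 without empty vector replicate 1. With GC trends removed it was -0.03. RPS15 and RPS14 were first in order, with -0.10 and -0.07. Of 30 nuclear genes of oxidative phosphorylation, 22 were below 0 with a median of -0.03, which turned to 0.01 without empty vector replicate 1. With GC trends removed that median was -0.04. CYC1, a subunit of complex III, had -0.11, and SDHA, of complex II, had -0.10. Empty vector replicate 1 had the steepest GC trend of the 9 libraries, with a rank correlation of 0.41 computed over them, where the others ran from -0.23 to 0.20. The part of these trends in the lists' medians was not tested beyond the values given.

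Lists of melanoma state and matrix held no call either. Of 10 melanocyte differentiation genes tested, PMEL, which forms the fibres of the melanosome, had 0.436, 1.07 and 1.90 CPM (lowest, median and highest) with the deletions, against 0.194, 0.429 and 0.320 CPM with empty vector. The groups did not overlap, on 56 counts over the deletion libraries and 9 over the empty vector libraries. Its log2 fold change was 1.63 with a 95% interval of 0.56 to 2.69, an unadjusted p of 0.00384 and an adjusted p of 0.984 by edgeR. MLANA, another pigment cell antigen, had 0.48. The list's median was 0.10, and it ran from 0.03 without empty vector replicate 1 to 0.20 without empty vector replicate 3. Of 21 genes of the dedifferentiated melanoma state, TEAD4 had -0.14 and CDH13 0.12, each at an unadjusted p under 0.05, with a median of -0.01. Of 23 matrix proteases and inhibitors, MMP24 had 0.19 and MMP16 0.09, the list's median was 0.06, and 0 had an unadjusted p under 0.05. Of 24 extracellular matrix genes, 3 had an unadjusted p under 0.05 on the higher side and 1 on the lower side, COL6A1. VCAN, which encodes the proteoglycan versican, had 115, 139 and 141 CPM with the deletions, against 119, 109 and 128 CPM with empty vector, a log2 fold change of 0.17.

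**Figure D5:**
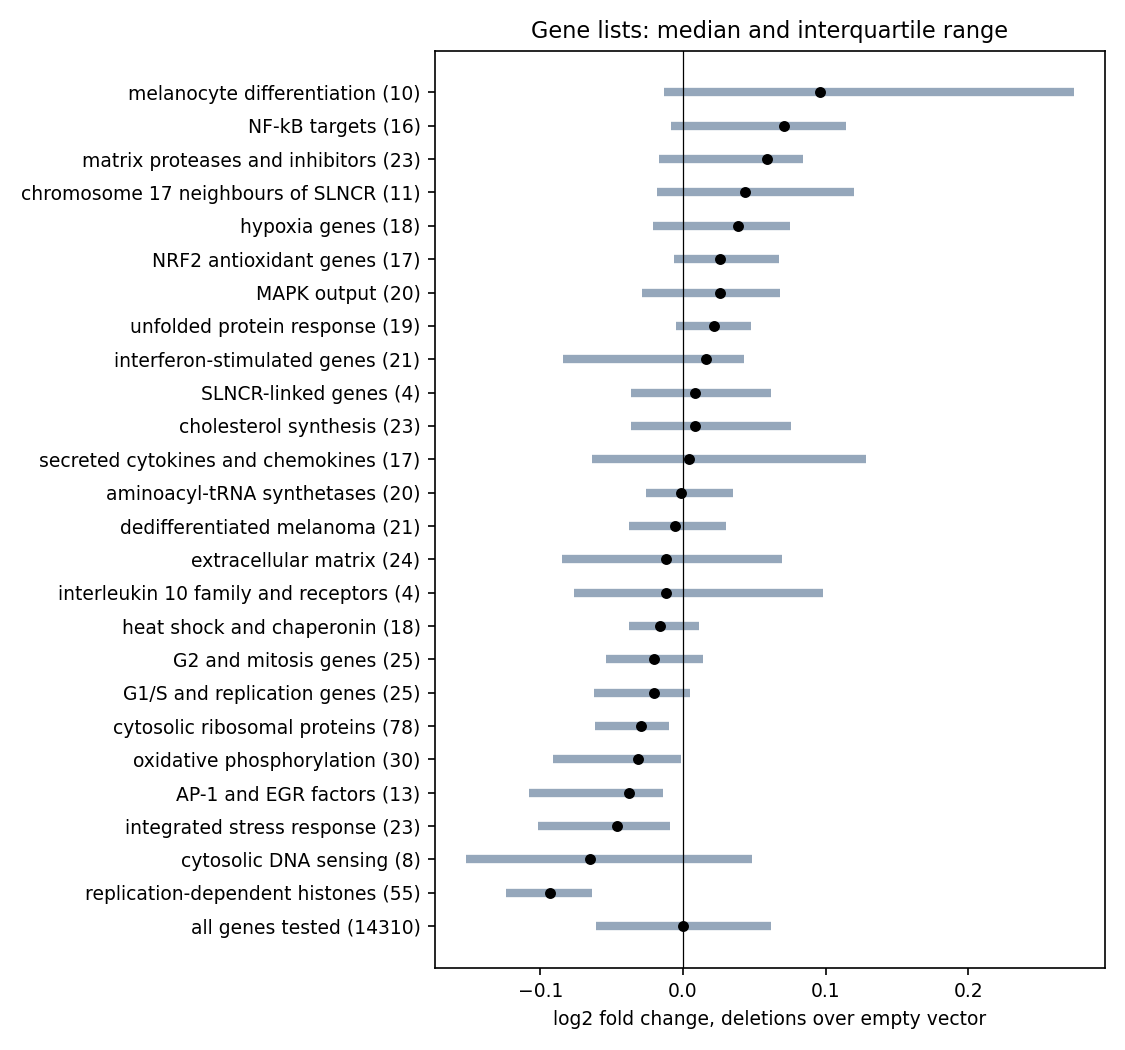
Median (point) and interquartile range (bar) of the members' log2 fold changes, pooled deletions over empty vector, for the pathway and gene family lists described with at least 3 members tested (cell type markers are not drawn); the number tested stands in brackets and the bottom line shows all genes. The medians drawn lie between -0.09 for histones and 0.10 for melanocyte differentiation, and all genes have a median of 0.00.

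The labelled identity of the cells was read from markers. VIM (3280 CPM with the deletions, 3383 CPM with empty vector), AXL (835 and 847 CPM), MITF (86.0 and 83.2 CPM) and SOX10 (14 and 13 CPM) were present, while S100B and TYR had no count in any of the 9 libraries. PMEL, another of the melanoma markers, stood at the low level given above. The labels call the cells epithelial: KRT18 (345 CPM with the deletions, 374 CPM with empty vector) and KRT8 (161 and 176 CPM) were present, but EPCAM, CDH1, KRT19 and ESRP1 averaged at most 0.24 CPM in either group. KRT18 and KRT8 had log2 fold changes of -0.11 and -0.13. CLDN4, the only other of the 7 epithelial markers abundant enough to test, had 0.15. The summed epithelial list ran from 491 to 535 CPM in the deletion libraries and from 530 to 589 CPM in the empty vector libraries. Of 6 keratinocyte, 6 fibroblast, 5 endothelial and 6 leukocyte markers, 1, 3, 0 and 0 were abundant enough to test. The fibroblast genes COL1A1 and LUM had log2 fold changes of -0.38 and 0.16, and the melanoma marker S100A1 had 0.71 at 1.99 CPM with the deletions and 1.21 CPM with empty vector, none of them called. The summed leukocyte markers stayed at or under 1.5 CPM in every library. Totals ran from 8627449 to 9582019 counts in the deletion libraries and from 9322070 to 10456767 in the empty vector libraries, and the most abundant gene took 1.51 to 1.65% of a library. On the first 2 principal components of the 9 libraries (21.4% and 15.2% of the variance), ΔTFR1 replicate 1 and ΔTFR2 replicate 2 lay at opposite ends of the first. On the second, empty vector replicate 1 lay at one end (-12.6), the other empty vector libraries at -7.88 and 0.25, and the deletion libraries between -5.06 and 8.88, so that the groups overlapped.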

How the data were processed

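RNA of A375 cells was sequenced as 150-base read pairs. Per the submitters' processing notes, the tools were STAR 2.7.3a, Subread 1.6.2 with featureCounts, cutadapt 2.5, DESeq2 1.24.0 and FastQC 0.11.5, and both GRCh38 and GRCm38 are listed without a role. No source used here names the annotation or the strand setting. The authors deposited raw counts per gene symbol (28008 genes; 27 symbols had turned into dates and entered no list). Batch 2 was not used here. The test was that of edgeR 4.0.16 (R 4.3.3), after filterByExpr (minimum count 10, minimum total 15), which left 14310 genes, TMM, and the robust quasi-likelihood test in 1 model of 4 groups and 12 libraries. The contrast was the mean of ΔTFR1 and ΔTFR2 minus empty vector. P-values were Benjamini-Hochberg adjusted over all genes and called under 0.05. CPM values use TMM library sizes. Intervals are 95%. Alternatives were DESeq2 1.42.0, its size factors, no filter, the 9 libraries alone, a replicate block, GC trends removed by lowess, and leaving out libraries. Scripts were tested on simulated counts.

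Replicate numbers were not shown to pair the libraries: over 9 pairs of same-numbered libraries the correlation of deviations ran from -0.13 to 0.18. The 2 that exceeded 0.1, at 0.11 and 0.18, both joined ΔTFR1 and ΔTFR2. Values this weak do not decide whether the libraries pair. Replicates of these groups differed beyond sampling noise, with a chi-square of 1.49 to 3.41 per gene. Genes named are SLNCR, 3 lists around it (SLNCR-linked genes, chromosome 17 neighbours, interleukin 10 family), every called gene, the 10 higher and 10 lower genes of smallest p with mean log2 CPM of at least 1 and non-overlapping libraries, and the 2 members of each list with the smallest p. PTGS2, JUN and FOSL1 were added after their values were seen, as were the genes of widest interval. The comparison and the gene lists were chosen with earlier results of these data known. Some results that this rule or the lists would give are not reported here.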

Additional observations from a re-analysis of the deposited data

Results flagged for a closer look

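Each of the following genes had 1 deletion library far from the other 5, by the gap to its neighbour over the range of the 6 (above Dixon's limit of 0.625). Chance sets apart about 1 group in 20. In ΔTFR1 replicate 1, FOS was at 45.5 CPM, where the other 5 lay between 25.2 and 29.9 CPM. EGR1 was at 37.5 CPM there (others 28.7 to 32), AURKB at 85.2 CPM (others 73.5 to 76.8) and WIPF1 at 48.2 CPM (others 52.0 to 53.8). In ΔTFR2 replicate 2, RPS15 was at 367 CPM (others 313 to 325) and STARD4 at 4.97 CPM (others 7.87 to 9.16). CDH13 was at 98.6 CPM in ΔTFR1 replicate 2 (others 106 to 110), and C11ORF45 at 3.24 CPM in ΔTFR1 replicate 3 (others 2.40 to 2.54). SDK2 was at 7.16 CPM in ΔTFR2 replicate 1 (others 0.689 to 2.73). These were 9 of 82 genes looked at. ΔTFR1 replicate 1 held 4 of the values and ΔTFR2 replicate 2 held 2, and these libraries lie at opposite ends of the first principal component.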

How the results depend on the processing

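SLNCR was called under all 18 alternatives, with a log2 fold change of 3.25 to 3.31. IL24 was called under every alternative that kept all 9 libraries, at 0.34; leaving out 1 library gave 0.32 to 0.38, with the call lost in 7 of 9 refits, and leaving out both empty vector replicate 1 and ΔTFR1 replicate 1, a choice made after seeing the data, gave 0.37 with the call lost and a count of 1. The pooled count of 2 ran from 1 to 3 when 1 library was left out, and was 3 in both fits of the 9 libraries alone. With no filter on low counts, ΔTFR1 against empty vector gave 2 calls, ΔTFR2 against empty vector 4 and ΔTFR2 against ΔTFR1 2. Leaving out 1 library gave 1 to 3 calls for ΔTFR2 against empty vector. Against full-length SLNCR the count of 2587 was 180 with GC trends removed and 392 with GC trends removed and a replicate block. The replicate block left the pooled count at 2, and same-numbered libraries were not shown to pair.

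Of 1438 values of the other 80 genes, 1418 kept their direction and their side of the threshold, 3 became calls (HIST1H3D in both fits of the 9 libraries, FOS without ΔTFR1 replicate 1) and 17 turned sign without a call. FOSL1 was at 0.0018 with GC trends removed and 0.0015 with the block added, and IL10RB at -0.017 and -0.014 under the same settings. IL10RB was at -0.045 without both empty vector replicate 1 and ΔTFR1 replicate 1. With 1 library left out, LUM ran from -0.162 to 0.483, IL10RB from -0.082 to 0.103, IL20RB from -0.147 to 0.103, POU4F1 from -0.110 to 0.021 and EGR1 from -0.061 to 0.166. Of 330 list medians, 16 moved by more than the spread, 5 each for cytosolic DNA sensing and hypoxia, 3 for fibroblast markers and 1 each for ribosomal proteins, oxidative phosphorylation and a list not described.
The cause of these differences was not tested. Intervals were widest for genes under 10 CPM.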
